A study of Mus musculus with 12 samples.

Results

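The genes Gh, Cga, Dcpp1, Dcpp2, Dcpp3 and Smgc of the pituitary gland and the salivary glands, 6 of 13770 protein-coding gene models, were followed through RNA-seq of 12 E18 whole brains. They were selected on their measured values, because each was near 0 in most brains and high in a few, so their levels and their differences between groups are given as a description and not as a test. The brains came from C57BL/6 mice at embryonic day 18, taken from dams that drank ethanol in sweetened water (PAE, prenatal alcohol exposure) or the saccharin-sweetened water alone (SAC), so that both groups shared saccharin. Each treatment had 3 female and 3 male brains, with 1 library per brain. The female PAE libraries were ES19-4, ES23-7 and ES27-4, the male PAE libraries ES19-8, ES23-4 and ES27-1, the female SAC libraries SAC12-5, SAC26-5 and SAC26-7, and the male SAC libraries SAC12-6, SAC12-7 and SAC26-8. Each name prefix (ES19, ES23, ES27, SAC12 or SAC26) held pups of 1 treatment. The labels do not say what a prefix stands for, so differences are judged against the spread between these brains only.

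The pituitary gland lies under the brain, attached to the hypothalamus by a stalk, and its anterior lobe arises from the roof of the mouth and not from neural tissue. Its somatotrophs secrete growth hormone (Gh), and its thyrotrophs and gonadotrophs secrete glycoprotein hormones that share the alpha subunit encoded by Cga. The salivary glands are branching epithelial glands of the mouth. Dcpp1, Dcpp2 and Dcpp3 encode demilune cell and parotid proteins, small secreted proteins of the salivary glands, and Smgc encodes submandibular gland protein C, a secreted product of the immature submandibular gland.

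The 3 Dcpp genes lie in a row on the forward strand of chromosome 17 and are close copies, which matters for how far their levels can be read one by one. The third exon, entirely coding, has 103 bases in each of them and differs at 6 positions, printed in capitals in the 3 sequences that follow, taken from the GENCODE M21 transcripts of GRCm38 at chr17:23881371-23881473 (Dcpp1), chr17:23899306-23899408 (Dcpp2) and chr17:23917961-23918063 (Dcpp3).
Dcpp1 exon 3: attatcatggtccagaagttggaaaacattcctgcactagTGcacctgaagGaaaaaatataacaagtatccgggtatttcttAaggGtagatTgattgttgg
Dcpp2 exon 3: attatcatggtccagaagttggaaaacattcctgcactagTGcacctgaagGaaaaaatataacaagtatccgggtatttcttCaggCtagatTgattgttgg
Dcpp3 exon 3: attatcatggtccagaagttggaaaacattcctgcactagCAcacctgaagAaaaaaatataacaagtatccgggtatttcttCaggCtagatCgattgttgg
In this exon Dcpp1 and Dcpp2 differ at 2 bases, Dcpp2 and Dcpp3 at 4 and Dcpp1 and Dcpp3 at 6. The second exon, of 81 bases, is identical in Dcpp1 and Dcpp3 and differs from both at 2 bases in Dcpp2. The longest run of identical sequence in the transcripts is 168 bases between Dcpp1 and Dcpp3, 145 between Dcpp2 and Dcpp3 and 144 between Dcpp1 and Dcpp2. Of all stretches of 50 bases, 46.5% of those in Dcpp1, 30.6% of those in the transcript Dcpp2-201 and 36.5% of those in Dcpp3 occur unchanged in another of the 3 genes, and of all stretches of 150 bases 4.06%, 0% and 4.34%. The split of reads among the 3 genes is therefore less certain than their sum.

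Gh (ENSMUSG00000020713.6, chr11:106300271-106301865 of GRCm38, reverse strand) was high in a pair of female SAC brains. The level in FPKM, sequenced fragments scaled by the length of the transcript and the depth of the library, was 37.1 in SAC12-5 and 65.0 in SAC26-7, whereas the remaining female SAC brain, SAC26-5, was at 0.115. The male SAC brains SAC12-6, SAC12-7 and SAC26-8 were at 0, 0.102 and 0 FPKM. Of the PAE brains 1 was above 1 FPKM. The male ES19-8 was at 3.20 FPKM, ES23-7 was at 0.0828 FPKM, and ES19-4, ES23-4, ES27-1 and ES27-4 were listed at 0. Thus 4 of the 6 SAC brains lay among the PAE brains, and SAC12-5 and SAC26-7 together held 96.7% of the Gh FPKM of the 12 libraries.
Cga (ENSMUSG00000028298.10, chr4:34893779-34907370, forward strand) followed Gh at a lower level. It was at 3.25 FPKM in SAC12-5 and 4.70 FPKM in SAC26-7, at 0.0776 FPKM in ES19-8, and listed at 0 in the other 9 libraries. These 3 libraries are the same 3 in which Gh passed 1 FPKM. In SAC26-7 Gh was 1.75-fold and Cga 1.45-fold above SAC12-5 in FPKM, so that the ratio of Gh to Cga was 13.8 in the former and 11.4 in the latter. Depth is unknown in these files, so no counting error can be put on a low value such as that of Cga in ES19-8.

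Dcpp1 (ENSMUSG00000096445.1, chr17:23880876-23882853) was highest in a different pair of female SAC brains. It was at 207 FPKM in SAC26-5 and 25.7 FPKM in SAC12-5, and at 0.175 FPKM in the third female SAC brain, SAC26-7. The male SAC brains SAC12-6, SAC12-7 and SAC26-8 were at 0.142, 0 and 0.148 FPKM. Among PAE brains, ES27-4 was at 0.336 FPKM, ES23-4 at 0.182 FPKM and the other 4 were listed at 0. The 4 low SAC brains overlapped the PAE brains.
Dcpp2 (ENSMUSG00000096278.7, chr17:23880880-23900787) was at 157 FPKM in SAC26-5 and 17.9 FPKM in SAC12-5. SAC26-8 was at 0.205 FPKM, and SAC12-6, SAC12-7 and SAC26-7 were listed at 0. In PAE, ES19-4 and ES19-8 were at 0.305 and 0.345 FPKM and the other 4 brains were listed at 0. Dcpp2 thus showed the same pair of high brains, and its 4 low SAC brains lay within the PAE range.
Dcpp3 (ENSMUSG00000057417.6, chr17:23917458-23919441) reached the highest level of the 6 genes, 303 FPKM in SAC26-5, with 46.1 FPKM in SAC12-5. SAC26-7, SAC12-6, SAC12-7 and SAC26-8 were at 0.342, 0.357, 0 and 0.161 FPKM. Of the PAE brains, ES19-8 was at 0.348 FPKM, ES23-7 at 0.142 FPKM and the other 4 were listed at 0. The gap between SAC12-5 and the next brain below it, SAC12-6, was 129-fold.
Smgc (ENSMUSG00000047295.16, chr15:91838265-91861438, forward strand) was at 48.4 FPKM in SAC26-5 and 1.95 FPKM in SAC12-5. ES19-8, SAC12-6 and SAC12-7 were at 0.0273, 0.0259 and 0.0258 FPKM, and the other 7 libraries were listed at 0. In SAC26-5 Smgc was 24.9-fold above SAC12-5, where Dcpp1, Dcpp2 and Dcpp3 were 8.04-fold, 8.74-fold and 6.58-fold above it. Muc19, a salivary mucin gene, was looked for but is not among the genes measured. Its model overlaps Smgc on the same strand and shares the first exon of Smgc. Smgc reads in that exon therefore cannot be assigned with certainty.

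**Figure D1:**
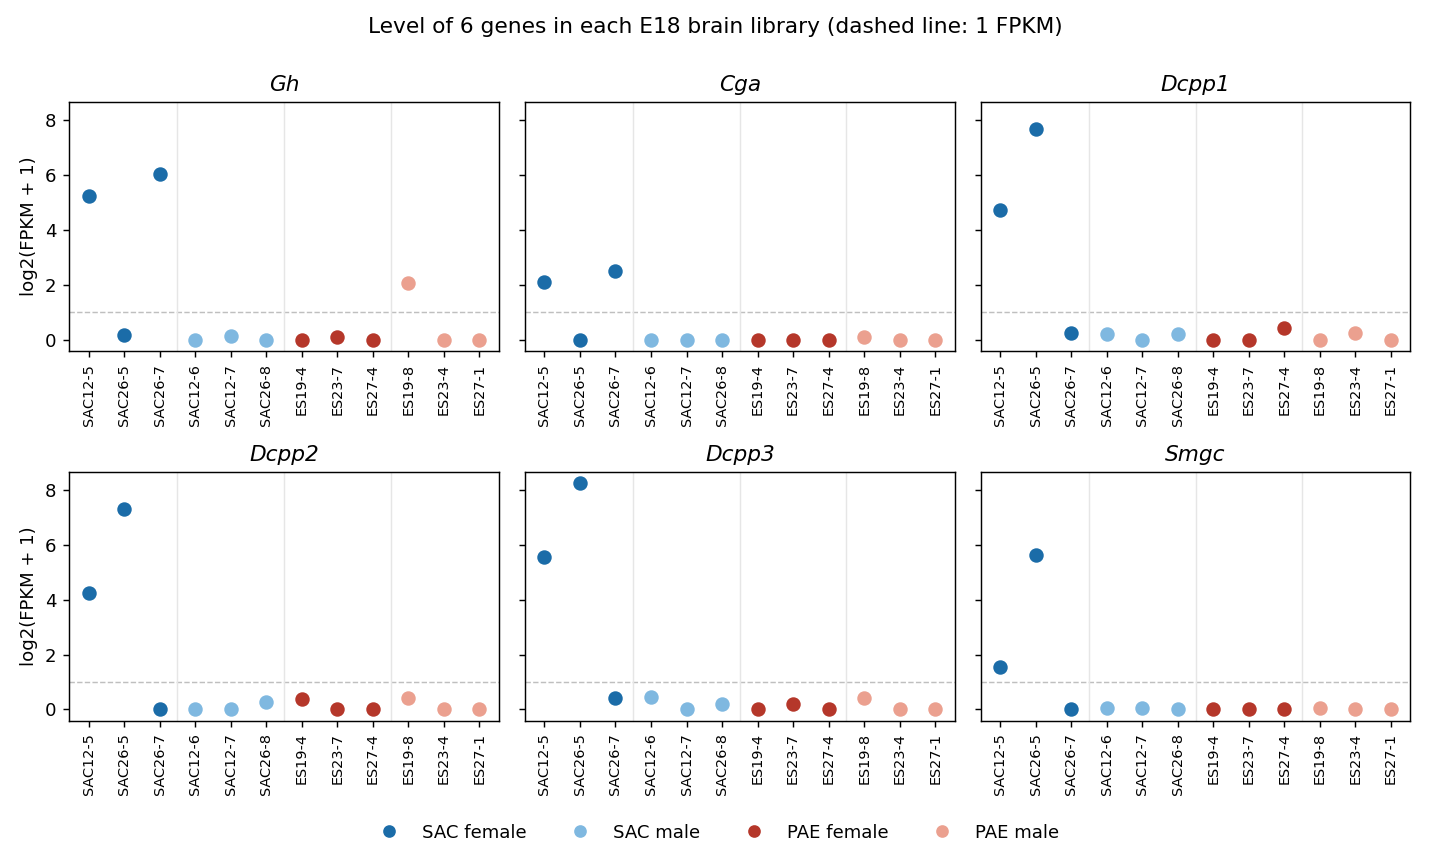
Level of the 6 genes as log2(FPKM + 1) in each of the 12 E18 brain libraries, 1 point per library, coloured by treatment and sex, with a dashed line at 1 FPKM. Gh and Cga stand out in SAC12-5 and SAC26-7, Dcpp1, Dcpp2, Dcpp3 and Smgc in SAC12-5 and SAC26-5, and ES19-8 is the only PAE library above the line, for Gh at 3.20 FPKM.

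The 6 genes therefore fell into a pituitary pair and a salivary set of 4, joined by 1 library that was high for both. Over the 12 libraries Pearson's r on the log2(FPKM + 1) scale was 0.972 between Gh and Cga and 0.941 to 0.995 within the salivary set, but 0.0198 to 0.250 between the sets. These values describe 12 points of which 2 or 3 carry nearly all the variation, and the genes of a set share their libraries. SAC12-5 held both sets, SAC26-5 the salivary set and SAC26-7 the pituitary set. Libraries of the same name prefix did not share these RNAs: of the 3 SAC12 libraries only SAC12-5 was high for any of the 6 genes, and of the 3 SAC26 libraries SAC26-8 was low for all.
The share of the 6 genes in the summed FPKM of a library was small even where they were high. It was 0.315% in SAC26-5, 0.0582% in SAC12-5 and 0.0307% in SAC26-7, and 0.00177% in ES19-8, the next in order. The female SAC means were 34.1 ± 32.5 FPKM for Gh and 117 ± 163 FPKM for Dcpp3 (SD, n = 3 each), so the SD was about as large as the mean or larger. More cells of a type and more RNA per cell cannot be told apart in bulk libraries.

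The proportions among the Dcpp genes were alike in the 2 libraries that held them. Dcpp1, Dcpp2 and Dcpp3 were in the order Dcpp3, Dcpp1, Dcpp2 in both, with Dcpp3 at 51.4% and Dcpp1 at 28.6% of their summed FPKM in SAC12-5 and at 45.5% and 31.0% in SAC26-5, while the sum went from 89.7 to 667 FPKM. Relative to Smgc the sum was 46.1 times higher in SAC12-5 and 13.8 times higher in SAC26-5, so the Dcpp genes and Smgc did not move in proportion.
Transcript values showed the same difference within Smgc. In SAC26-5 the transcript Smgc-202 led with 36.2 FPKM, 61.1% of the transcript sum of the gene, and Smgc-201 was at 14.3 FPKM. In SAC12-5 Smgc-201 led with 0.967 FPKM and Smgc-202 was at 0.697 FPKM, or 28.3% of the sum. Both libraries thus gave reads to the long coding transcripts of Smgc but in another order, at levels that differ so much that the order in SAC12-5 rests on little signal. Dcpp2 also has a pair of transcript models, which share exons 2 to 4 and differ in exon 1 alone. The first exon of Dcpp2-202, chr17:23880880-23880909, is 30 bases long and lies inside the first exon of Dcpp1, whereas that of Dcpp2-201 lies directly upstream of the other Dcpp2 exons. Dcpp2-201 was at 110 FPKM and Dcpp2-202 at 56.1 FPKM in SAC26-5, and they were at 9.78 and 9.39 FPKM in SAC12-5. Because of this shared exon the gene models of Dcpp1 and Dcpp2 overlap.

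**Figure D2:**
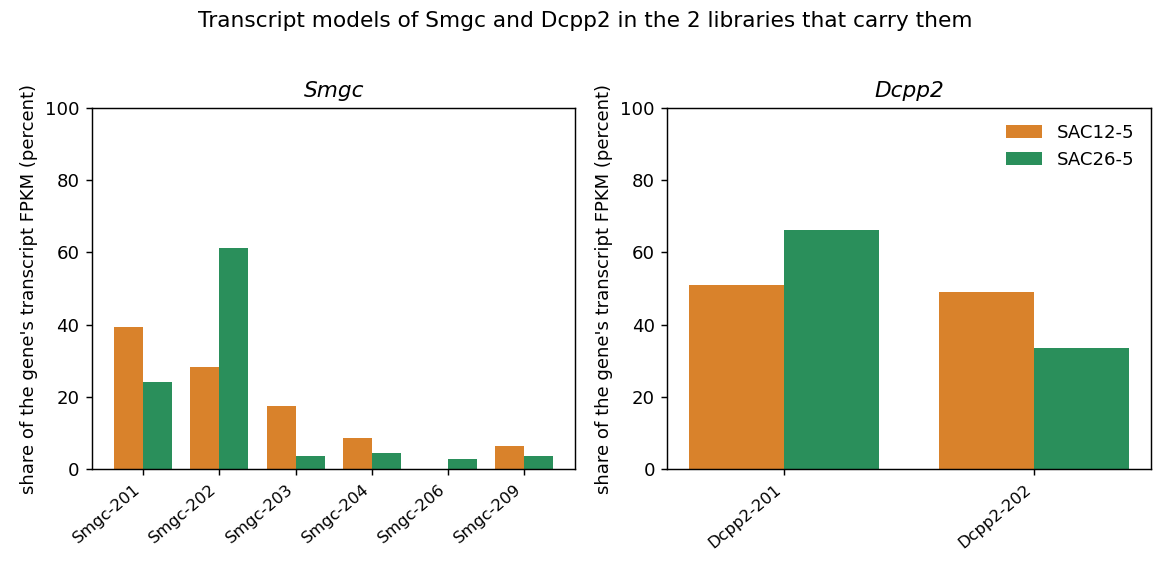
Share of each transcript model in the summed transcript FPKM of Smgc (left) and Dcpp2 (right), in percent, in the 2 libraries with these genes (SAC12-5 in orange, SAC26-5 in green). Smgc-202 holds 61.1% of the Smgc sum in SAC26-5 and 28.3% in SAC12-5, and Dcpp2-201 and Dcpp2-202 are nearly level in SAC12-5.

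Other genes followed the salivary set. Among the 13069 genes with at least 1 FPKM in some library, the 3 whose pattern was most like that of Smgc were A2ml1 (r = 0.995), a protease inhibitor of the alpha-2-macroglobulin family, Wfdc12 (r = 0.993), which encodes a secreted protein with a whey acidic protein domain, and Ehf (r = 0.993), an ETS transcription factor of epithelia. A2ml1 was at 18.9 FPKM in SAC26-5, 2.41 FPKM in SAC12-5 and at most 0.773 FPKM elsewhere. For each Dcpp gene the 3 most alike were the other 2 Dcpp genes and Wfdc18, of the same protein family as Wfdc12, with r from 0.977 to 0.986 for Wfdc18. Wfdc18 was at 5.61 FPKM in SAC26-5 and 1.60 FPKM in SAC12-5, and at most 0.316 FPKM elsewhere.
Of 18 genes listed as salivary gland markers 12 were measured, 8 of them outside the 6 genes. Bpifa2, the parotid secretory protein, was at 13.5 FPKM in SAC26-5 but at 0.0872 FPKM in SAC12-5, and was listed at 0 in 9 of the other libraries. Agr2, a disulfide isomerase of secretory epithelia, was at 5.08 FPKM in SAC26-5 and 1.08 FPKM in SAC12-5, and Aqp5, the water channel of salivary acinar cells, at 3.91 and 1.05 FPKM. Pip and Prol1, which encode secreted proteins of salivary and lacrimal glands, were at 2.93 and 2.04 FPKM in SAC26-5, with Pip at 0.119 FPKM and Prol1 listed at 0 in SAC12-5. These 8 genes summed to 37.2 FPKM in SAC26-5, to 9.11 FPKM in SAC12-5 and to 4.67 to 8.92 FPKM in the other 10 libraries. Most of that sum outside SAC26-5 was Amy1, an amylase gene that was at 3.95 to 7.98 FPKM over all 12 libraries. Without Amy1 the other 7 genes summed to 31.5 FPKM in SAC26-5, 3.14 FPKM in SAC12-5 and 0.41 to 1.81 FPKM elsewhere, so that SAC12-5 lay above the 10 low libraries by this sum too.
Few genes behaved this way. With 0.1 FPKM added to each value, 19 of the 13770 genes were at least 5-fold higher in 1 library than in any other, and 9 of them had SAC26-5 as that library: Dcpp1, Dcpp2, Dcpp3, Smgc, Bpifa2, Prol1, Pip, Wfdc12 and A2ml1. The other libraries had 0 to 3 such genes each. In both SAC12-5 and SAC26-5, 10 genes were at least 2-fold above every other library, namely Dcpp1, Dcpp2, Dcpp3, Smgc, Wfdc12, Wfdc18, Ehf, A2ml1, Pip and the model Gm29609. Over the 64 pairs of libraries that remain when the pairs of both sets are left out, the count was 0 to 10 genes with a median of 0, and the pair that also reached 10, SAC26-5 and SAC26-8, included none of the 6 genes. Keratins of simple epithelium were high in SAC26-5 and also in SAC26-8, a brain with little Dcpp signal. Krt8 was at 12.1 FPKM in SAC26-5, 16.0 FPKM in SAC26-8 and 0.763 to 2.72 FPKM in the other 10 libraries. The sum of 8 simple epithelium genes, of 16 listed, was 41.7 FPKM in SAC26-5, 43.0 FPKM in SAC26-8 and 8.73 to 15.7 FPKM elsewhere. Keratins made up most of that sum in both SAC26-5 and SAC26-8. Of the other genes in it, Epcam was at 4.89 and 1.31 FPKM in these libraries, Cdh1 at 2.71 and 1.52, Ehf at 2.13 and 0.0120 and Cldn3 at 3.63 and 3.53. The sum of listed stratified epithelium genes was 26.0 FPKM in SAC26-5, 33.5 FPKM in SAC26-8 and 15.5 to 20.3 FPKM elsewhere. The part of these epithelial genes in the Dcpp values was not tested.

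Pomc, the precursor of ACTH and melanocortins in pituitary cells and in neurons of the hypothalamus, was the gene outside the 6 whose pattern was most like that of Gh (r = 0.941). It was at 16.2 FPKM in SAC26-7, 8.23 FPKM in SAC12-5 and 7.67 FPKM in ES19-8, the 3 libraries that also held Gh, and at 0.893 to 2.06 FPKM in the other 9. In ES19-8 Pomc reached 93.1% of its FPKM in SAC12-5 while Gh reached 8.61%. Of 11 listed pituitary hormone and receptor genes 5 were measured. Besides Gh, Cga and Pomc these were Crhr1 and Trhr, receptors for hypothalamic releasing hormones, at 2.49 to 3.80 and 0.581 to 1.26 FPKM. Trhr was highest in SAC12-5 and at 0.941 FPKM in SAC26-7, and Crhr1 was highest in SAC26-8. Of 15 listed transcription factors of the pituitary 8 were measured, and they summed to 14.3 to 19.3 FPKM over the 12 libraries, with 19.3 in SAC12-5, 17.7 in SAC26-7 and 18.9 in ES19-8. The regulator Isl1 was at 9.20 and 7.86 FPKM in SAC12-5 and SAC26-7, within its range of 5.47 to 10.6 FPKM. Several of these factors are also expressed in the hypothalamus and elsewhere in the brain.
Genes of sensory neurons shared the libraries of Gh and Cga. The 3 genes most like Cga were Tusc5 (r = 0.974), Gh and Avil (r = 0.948), the last encoding advillin, an actin-binding protein of sensory neurons. Avil was at 1.66 FPKM in SAC12-5, 1.56 FPKM in SAC26-7 and at most 0.480 FPKM elsewhere, and Tusc5 at 1.08, 1.02 and at most 0.204 FPKM. In both SAC12-5 and SAC26-7, 6 genes were at least 2-fold above every other library: Gh, Cga, Tusc5, Avil, Pirt and P2rx3. Pirt, a regulator of ion channels in sensory neurons, was at 1.78 and 1.18 FPKM, and P2rx3, an ATP-gated channel of the same neurons, at 1.30 and 1.09 FPKM. ES19-8, with Gh and Pomc, did not share them, with Avil at 0.169 FPKM and Tusc5 at 0.0222 FPKM. The 10 measured sensory ganglion and Schwann cell genes, of 12 listed, summed to 91.4 FPKM in SAC12-5 and 90.6 FPKM in SAC26-7, but also to 78.8 FPKM in SAC26-8 and 65.5 FPKM in ES19-4, and to 18.9 FPKM in ES19-8. Their part in the values of Gh and Cga was not tested.

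**Figure D3:**
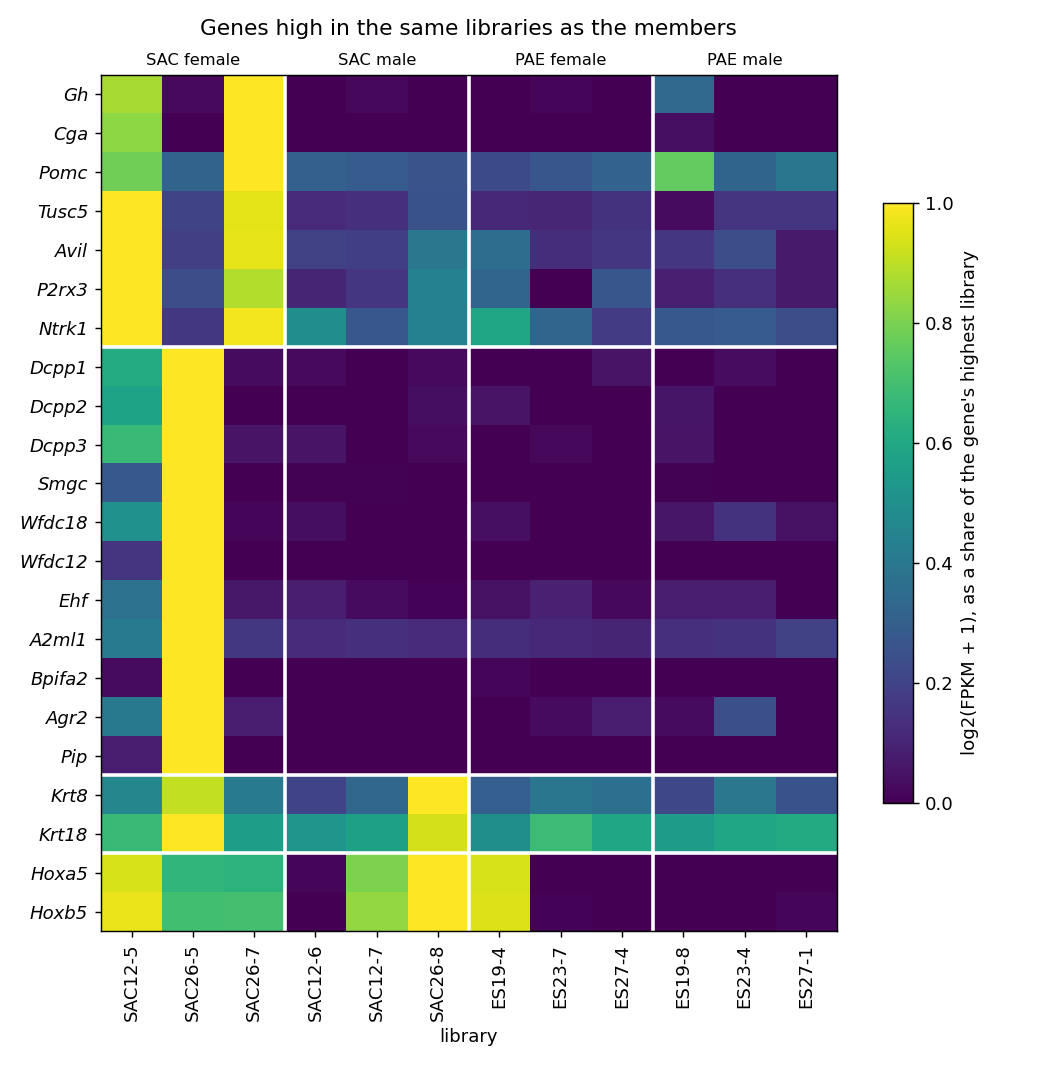
Level of the 6 genes and of named companion genes in the 12 libraries, as log2(FPKM + 1) divided by that of the gene's highest library (1 is yellow, 0 is dark), with libraries grouped by treatment and sex. From top to bottom the blocks hold genes of the Gh and Cga pattern, genes of the Dcpp and Smgc pattern, keratins of simple epithelium, and Hox genes, which are high in SAC12-5, SAC26-5 and SAC26-7 but also in SAC12-7, SAC26-8 and ES19-4.

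The libraries differed in other tissue as well. All 10 listed genes of brain neurons and progenitors were measured, and they summed to 1068, 1174 and 1112 FPKM in SAC12-5, SAC26-5 and SAC26-7 against 1061 to 1255 FPKM in the other 9. Tubb3, a neuronal tubulin, made up much of this sum, and 2 cortical transcription factors on the list were low in the libraries highest in Gh. Neurod6 was at 118 and 127 FPKM and Tbr1 at 13.1 and 13.6 FPKM in SAC12-5 and SAC26-7, and both were as low in SAC26-8, at 115 and 13.8 FPKM, where Gh was listed at 0. In the other 9 libraries they were at 165 to 268 and 19.3 to 29.0 FPKM, among them SAC26-5 at 189 and 21.6 FPKM. Slc17a6 and Snap25, from the same list, went the other way. Slc17a6 was at 35.3 and 36.2 FPKM in SAC12-5 and SAC26-7, 37.8 FPKM in SAC26-8 and 14.2 to 31.8 FPKM elsewhere. Snap25 was at 56.3 and 55.7 FPKM, 60.8 FPKM in SAC26-8 and 34.9 to 55.4 FPKM elsewhere. The part of these genes in the values of Gh and Cga was not tested. The 15 Hox genes, which mark hindbrain and spinal cord, summed to 25.7 to 72.2 FPKM in SAC12-5, SAC12-7, SAC26-5, SAC26-7, SAC26-8 and ES19-4, and to 0.0475 to 0.464 FPKM in the other 6. SAC12-5, SAC26-5 and SAC26-7 all stood among the Hox-high libraries, whereas ES19-8 did not. Whether dissection differed between these brains was not tested. The sum of FPKM over all genes was 218026 to 232863 per library, and each library had 12025 to 12459 genes with 1 FPKM or more.

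In PAE vs. SAC E18 whole brain, all 6 genes were lower in PAE by more than 1.5-fold on the log2(FPKM + 1) scale. The differences were -2.38 for Dcpp3 (standard error 1.26), -2.07 for Dcpp1 (1.16), -1.83 for Dcpp2 (1.11), -1.57 for Gh (1.07), -1.20 for Smgc (0.801) and -0.75 for Cga (0.427). By the size of the difference they ranked 3, 5, 6, 11, 21 and 70 of 13770 genes, where the median absolute difference was 0.094. With limma 0 of the 5 members tested passed an adjusted p under 0.05, against 9.56% of all genes tested, and 0 passed the threshold of the study, a 1.5-fold change with p under 0.05, taken here as an unadjusted p, against 0.996%. None was at an unadjusted p under 0.05 either. Calls by the threshold of the study are limma calls here and throughout, and not the calls that the study made. Cga, with a mean of 0.669 FPKM, was below the minimum of 1 FPKM and was not tested. Since the members were selected on these values, nothing is read from the counts.
Each difference rested on 2 libraries. Without SAC12-5 and SAC26-7 the difference for Gh went from -1.57 to 0.29 and that for Cga from -0.75 to 0.018, the remaining Gh signal being that of ES19-8. Without SAC12-5 and SAC26-5 those for Dcpp1, Dcpp2, Dcpp3 and Smgc went to -0.046, 0.068, -0.17 and -0.012. Leaving out 1 of these libraries made the differences smaller, in part below 1.5-fold. Without SAC26-5, the highest for the salivary set, Dcpp3 was at -1.22 (standard error 0.827) and Dcpp1 at -0.96 (0.717), while Smgc, at -0.32 (0.245), was below 1.5-fold. Without SAC26-7 Gh was at -0.75 (0.868) and Cga at -0.40 (0.328), and without SAC12-5 Gh was at -0.90 (0.983) and Cga at -0.48 (0.393), Cga being below 1.5-fold in both.

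Among females, PAE vs. SAC, these genes gave the largest differences of the whole table. Dcpp3 was lower by 4.68 on the log2(FPKM + 1) scale (standard error 1.38), and the differences were -4.08 for Dcpp1 (1.30), -3.78 for Gh (1.18), -3.72 for Dcpp2 (1.27) and -2.40 for Smgc (1.01). They held ranks 1 to 5 of 13770 by size, and Cga, at -1.53 (0.469), ranked 19. The median absolute difference over all genes was 0.103. By the threshold of the study 5 of 5 tested members were called lower, against 0.761% of all genes tested, so that they made up 5 of the 94 lower genes, or 5.32%. This count became 3 of 5 when the 6 female libraries were fitted alone, with Dcpp2 and Smgc not called, and to 4 of 5 without ES19-4, ES23-7 or ES27-4, with Smgc not called in any of these. At an adjusted p under 0.05 from limma 0 were called, as were 0 of the 12346 genes, or 0%, with 1763 genes at an unadjusted p under 0.05. The 3 PAE values lay below the 3 SAC values for Gh and Dcpp3, 2 of the 5 tested members, against 7.33% of all genes tested. For Gh that order rested on SAC26-5 at 0.115 FPKM against ES23-7 at 0.0828 FPKM. These counts too follow from how the members were selected. Outside female SAC the group means of Dcpp1, Dcpp2, Dcpp3 and Smgc were at most 0.173 FPKM. Gh had 96.7% of its FPKM in SAC12-5 and SAC26-7. All 5 thus reached the mean of 1 FPKM needed for a test only through female SAC, so a call could only be lower in PAE.
Adjusted calls appeared when the female SAC library that lacked a set was left out, which left 2 libraries that were both high. Without SAC26-7, which lacks the salivary set, 3 members were called at an adjusted p under 0.05, of 4 genes called among the 12346 tested. Dcpp3 was then at -6.84 (standard error 0.566). Without SAC26-5, which lacks the pituitary pair, 1 member was called, of 3 genes called, and Gh was at -5.61 (0.517). Without both libraries of a set the difference fell to near 0: Gh was at -0.12 (0.656) and Cga at 0 without SAC12-5 and SAC26-7, and Dcpp1, Dcpp2, Dcpp3 and Smgc were at -0.094, 0.13, -0.36 and 0 without SAC12-5 and SAC26-5. A single female SAC brain remains in these settings, and its spread is taken to be that of the other groups. In them the other set stayed, with Dcpp3 at -8.19 (0.216) from SAC26-5 alone and Gh at -6.01 (0.655) from SAC26-7 alone. No single female SAC library could thus be left out to clear all 6 genes from the comparison.
The call counts of all genes moved with these libraries as well. Of the 128 genes called by the threshold of the study in females, 66 were called again without SAC12-5, 102 without SAC26-5 and 66 without SAC26-7. Leaving out a female PAE library gave 113 without ES19-4, 50 without ES23-7 and 75 without ES27-4.

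**Figure D4:**
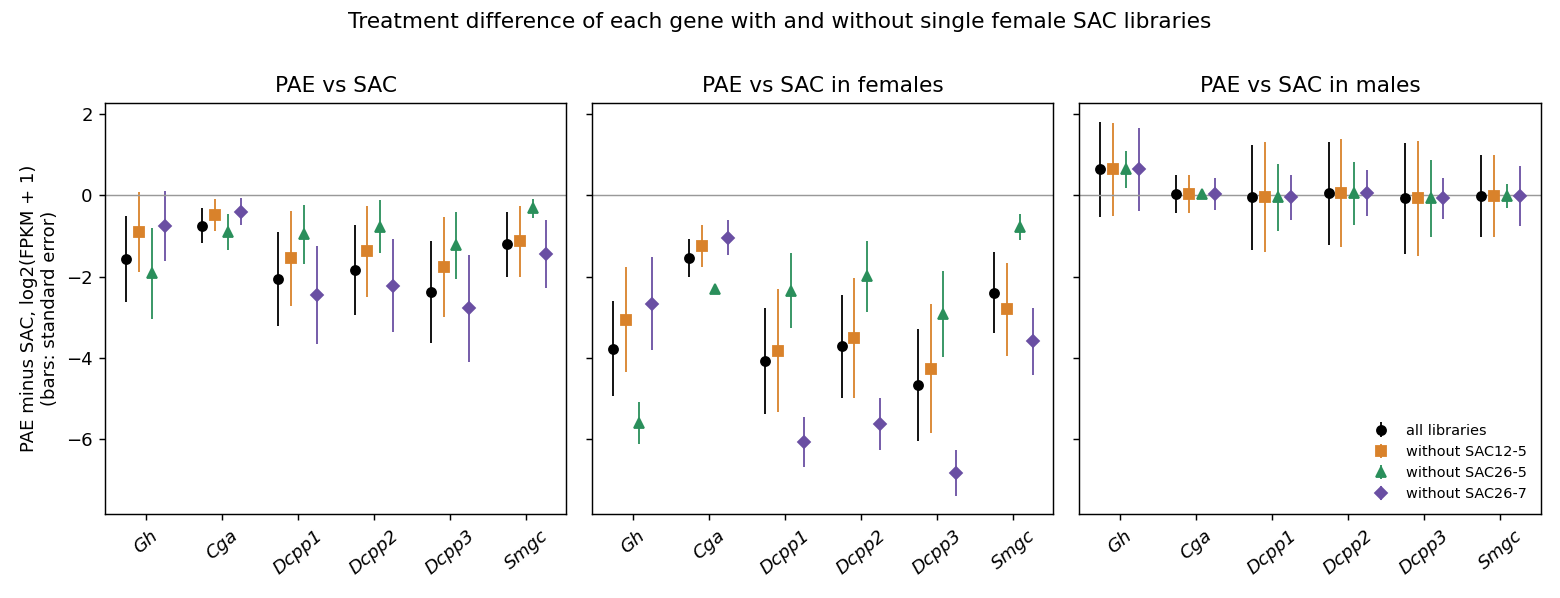
Difference PAE minus SAC on the log2(FPKM + 1) scale with its standard error for the 6 genes, over all brains (left), in females (middle) and in males (right), with all libraries (black) and without SAC12-5, SAC26-5 or SAC26-7. In females the differences run from -4.68 for Dcpp3 to -1.53 for Cga with all libraries, and in males they lie near 0 except that of Gh, at 0.64.

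In male PAE vs. male SAC E18 whole brain the 6 genes were near 0 in all brains but 1. Gh differed by 0.64 on the log2(FPKM + 1) scale (standard error 1.18), and by -0.047 (1.30) without ES19-8, which held the only male Gh signal above 1 FPKM. The other 5 genes were between -0.075 and 0.053. By the threshold of the study 0 of 5 tested members were called, against 1.3% of all genes tested, and 0 were at an unadjusted p under 0.05 in limma.
The female and male differences were compared as the interaction of sex and treatment. It was -4.60 for Dcpp3 (standard error 1.95), -4.42 for Gh (1.67), -4.03 for Dcpp1 (1.84), -3.77 for Dcpp2 (1.80), -2.38 for Smgc (1.42) and -1.57 for Cga (0.663), the most negative 4 of the table being Dcpp3, Gh, Dcpp1 and Dcpp2. Gh and Dcpp3 were called by the same threshold, 2 of 5 tested members, against 0.437% of all genes called in the negative direction. With limma 0 of 5 passed an adjusted p under 0.05, against 0.0081% of all genes. Without SAC26-5 1 member passed it, of 3 genes that passed, and without SAC26-7 1 member, of 2 genes. The 2 calls by the threshold became 0 without SAC12-5 or ES19-8, 4 without SAC26-7 and 1 without any 1 of the other 9 libraries.
Females and males of the SAC group differed as much as females of the 2 treatments did, since the female SAC libraries are the same. On the log2(FPKM + 1) scale the differences female minus male in SAC were 4.53 for Dcpp3, 4.09 for Dcpp1, 3.77 for Gh, 3.76 for Dcpp2, 2.37 for Smgc and 1.53 for Cga, and 5 of 5 tested members were called by the 1.5-fold threshold, against 0.235% of all genes called higher in females. With limma 0 of 5 passed an adjusted p under 0.05, against 0.0486% of all genes. Without SAC26-7 3 members passed it, of 9 genes that passed, and without SAC26-5 1 member, of 6 genes. The direction of the calls here and in the interaction was fixed by the same filters as in PAE vs. SAC females. The 5 calls by the threshold became 4 without SAC12-6, SAC12-7 or SAC26-8. In PAE the sexes differed by -0.65 for Gh and by -0.080 to 0.059 for the other 5. All 3 libraries with high levels were female SAC, so that sex, treatment and the libraries concerned cannot be told apart for these genes.

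The companions moved in the female comparison as their libraries did. Of the 8 other salivary genes measured, 5 were lower in PAE females by 1.5-fold or more on the log2(FPKM + 1) scale and 0 were higher. Every gene measured reached 0.5 FPKM in the mean of some group, so genes near 0 elsewhere were included only through female SAC. Their direction was thus fixed in advance, and nothing is read from this count. Only 2 of the 8, Bpifa2 and Amy1, reached the mean of 1 FPKM needed for a test. Of these 0 passed an adjusted p under 0.05 in limma (0 at an unadjusted p under 0.05). The median difference of these 2 was -0.74, where that of all tested genes was -0.0028. Bpifa2 was at -1.30 (standard error 0.761), from SAC26-5 alone. It reached the mean of 1 FPKM only through that library, so its direction was fixed too. Nothing is read from the median either. Of the 3 other pituitary hormone and receptor genes only Pomc passed 1.5-fold, at -1.77 (0.601) in females and -0.46 (0.543) over all brains, and 0 of 2 tested passed the adjusted p (1 at an unadjusted p under 0.05). Of the 8 pituitary transcription factors measured, 2 were lower by 1.5-fold in females, Gata2 and Pitx1. At an adjusted p under 0.05 in females 0 of 3 tested passed in limma (1 at an unadjusted p under 0.05). The median difference of the 3 tested was 0.099 in females and 0.12 over all brains. Among them Isl1 was at 0.13 (standard error 0.160) in females and 0.23 (0.111) over all brains. Over all brains 1 was lower, Gata2 (difference -0.61, standard error 0.111, adjusted p = 0.0189 from limma), against 9.56% of all genes called. Without SAC12-5 and SAC26-7 0 genes passed over all brains (2612 at an unadjusted p under 0.05), so Gata2 was not called there. Gata2 was highest in SAC26-8 at 2.27 FPKM, where Gh was listed at 0, followed by SAC26-7 at 2.08 FPKM, and SAC12-5 was at 1.58 FPKM. Pitx1 was highest in SAC26-5 at 1.61 FPKM, where Gh was at 0.115 FPKM, followed by the Gh libraries SAC12-5 and SAC26-7 at 0.791 and 0.541 FPKM. For both genes SAC12-5 and SAC26-7 were thus among the higher libraries but not the highest, and ES19-8, the third library with Gh, was at 0.646 and 0.249 FPKM.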

How the data were processed

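RNA was extracted by the authors from 12 E18 whole brains, and poly-A-selected stranded libraries were sequenced as paired ends. The authors used FastQC, cutadapt and HISAT2, and StringTie and Ballgown for FPKM. Versions are not stated in the sources used. The deposited tables hold FPKM for 13770 gene models and 29097 transcripts. No gene model in the table is under 0.5 FPKM in the mean of every group. The paper names the build GRCm28, and positions match GENCODE M21 of GRCm38. The best step for 1 read made 13.4% to 21.5% of low values whole (within 0.05), so reads were not recovered and depth is unknown.
The 12346 genes whose mean reached 1 FPKM were tested as log2(FPKM + 1) with limma 3.58.1 in R 4.3.3, with a variance trend and Benjamini-Hochberg adjustment. This scale understates differences of low genes. PAE vs. SAC used 12 brains, and the other comparisons came from 1 fit of the 4 groups. The fit was tested on simulated data. The members, lists and comparisons were chosen with earlier results of these data known. Named companions were the 3 genes with the highest r per member, up to 4 genes per marker list by highest FPKM, and genes overlapping a member. Genes named for standing at least 2-fold or 5-fold above other libraries, and Gata2, Pitx1, Tbr1, Slc17a6 and Snap25, were chosen after their values were seen. Alternatives were pseudocounts of 0.1 and 0.01, other filters and scalings, sex as a covariate, only the libraries compared, the name prefix as a random effect (statmod 1.5.0), leaving out each library, and sums of transcripts. Leaving out the 2 libraries of a set and comparing the sexes were added after seeing the data.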

Additional observations from a re-analysis of the deposited data

Results flagged for a closer look

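Within the 6 brains of each treatment, the highest library was set apart from the others by a gap past the 95% critical value of Dixon's test for 6 samples, for 7 of 12 combinations of gene and treatment. Chance sets apart about 1 in 20 groups where values follow a normal distribution. These FPKM values hold many zeros, so that rate cannot be applied to them. The genes were also selected for such values, so the count is a description. In SAC, SAC26-5 stood apart for Dcpp1 (207 FPKM), Dcpp2 (157 FPKM), Dcpp3 (303 FPKM) and Smgc (48.4 FPKM). For Gh and Cga in SAC no single library stood apart, as SAC12-5 and SAC26-7 were both high. In PAE, ES19-8 stood apart for Gh (3.20 FPKM). It did so too for Cga (0.0776 FPKM) and Smgc (0.0273 FPKM), where the other 5 PAE brains were listed at 0 and the value is too low to be read without depth.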

How the results depend on the processing

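Of 810 values of the members under alternatives, 91 moved by more than the spread between brains: 36 without both libraries of a set, 37 with a pseudocount of 0.1 or 0.01, and 18 without SAC26-5 or SAC26-7. A pseudocount of 0.1 took Gh in females from -3.78 to -6.04 and Dcpp3 from -4.68 to -7.10. Over all brains it made 1 member pass the 1.5-fold threshold with an unadjusted p under 0.05, and 0.01 made 2 pass. In females 0.01 left 4 of 5 called, and between SAC females and males 3 of 5. Leaving out SAC12-7 made 1 pass, Dcpp3. The sum of transcripts raised Cga from 3.25 to 4.51 FPKM in SAC12-5.
Counts of all genes at an adjusted p under 0.05 from limma depended on single libraries. Leaving out 1 library gave 124 to 2385 genes for PAE vs. SAC (1180 with all), 0 to 471 in females (0 with all), 0 (without ES23-4 or ES27-1, with 1348 and 1963 at an unadjusted p under 0.05) to 43 in males (4 with all) and 1 to 3 for the interaction (1 with all). Without SAC12-5 and SAC26-7 the counts were 0, 14, 1 and 10 (2612 at an unadjusted p under 0.05 for PAE vs. SAC), and without SAC12-5 and SAC26-5 they were 310, 7, 1 and 5. Quantile normalization gave 1 gene in females. In males both pseudocounts, both other filters, quantile normalization and the prefix as a random effect each gave 2 genes, and the 6 male libraries alone gave 9. The cause of these shifts was not tested. No paired analysis was possible for PAE vs. SAC because each name prefix holds 1 treatment. Both sexes share prefixes, and with the prefix as a random effect the members called between SAC females and males were again 5 and for the interaction 2. Depth limits all values under 1 FPKM, which carry an unknown counting error.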
